A study of Mus musculus with 3 samples.

Results

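The E2F transcription factors and the retinoblastoma (pocket) proteins that bind them were followed here in CD8+ T cells sorted from mouse spleen. The 9 genes were fixed by name: the activating factors E2f1, E2f2 and E2f3, the repressing factors E2f4, E2f7 and E2f8, and the pocket protein genes Rb1, Rbl1 and Rbl2. All 9 were found among the 25638 gene names of the deposited count table. The cells were recorded as coming from wild-type, untreated mice. They were sorted as naive, central memory or effector memory cells, with 1 RNA-seq library in each of the 3 groups. The age and strain of the mice, the sorting gates and the number of animals behind a library were not given in the sources used here. With 1 library a group there was no test of a difference between cell states, and every comparison below is between single libraries.

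E2F factors bind DNA as dimers with a DP protein and switch on the genes that a cell needs to enter S phase. In resting cells the pocket proteins hold them: RB, the product of Rb1, mainly binds the activating factors, while p107 (Rbl1) and p130 (Rbl2) mainly bind E2F4 and, with the MuvB proteins, form the DREAM complex that keeps cell cycle genes silent. Cyclin-dependent kinases phosphorylate the pocket proteins and free the activators. The atypical factors E2F7 and E2F8 need neither a DP partner nor a pocket protein, and repress E2F targets later in the cycle. Naive T cells are quiescent, and dividing T cells pass through this switch in each round.

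Levels are given as CPM, read counts scaled to a common effective library size, and as CPM per kilobase of exon where genes are set beside each other. A gene counted as higher or lower (was called) where the higher library had at least 5 CPM, the ratio was at least 2 and its exact 95% counting interval excluded 1; this is a rule of size. Library totals ran from 26876909 to 35846315 counts, so that a count of 0 allowed up to 0.108 CPM in naive, the shallowest library (3 counts). Intervals and floors cover counting error only. All 7 T cell identity markers reached 5 CPM, and their summed level was 4572, 3489 and 2157 CPM in naive, central memory and effector memory. The memory marker Cd44 was at 2.95, 45.8 and 113 CPM in that order. The 7 B cell markers summed to 35.7, 6.50 and 2.81 CPM in the same order, with Ms4a1 at 0 in both memory libraries. The 6 NK cell markers summed to 38.6, 134 and 92.2 CPM, with Ncr1, Klra8 and Klra4 at 0 in naive and effector memory, and Eomes, which CD8+ T cells also express, making up 38.1, 74.4 and 79.9 CPM of these sums. The 4 markers of CD4 T cells summed to 7.73, 39.7 and 94.3 CPM, nearly all of it in memory from Zbtb7b (1.33, 37.4 and 93.6 CPM), while Cd4 was below 5 CPM throughout and no marker was at 0. The 5 dendritic cell markers summed to 3.02, 2.23 and 12.5 CPM, with Xcr1 at 12.3 CPM in effector memory and Flt3 and Siglech at 0 in all 3 libraries. The part of these markers in the results below was not tested. The erythroid list of 8 genes and the myeloid list of 8 genes had no member at 5 CPM. The receptor segment Trbv12-1 made up 7.13% of Trbv counts in naive against 99.6% in central memory and 98.4% in effector memory. Cell state and receptor use therefore cannot be told apart. How this segment came to dominate both memory libraries in mice recorded as wild-type was not tested. In these bulk libraries a larger share of dividing cells and more RNA per cell cannot be told apart either.

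Promoter windows were examined because E2F genes are themselves known E2F targets. RefSeq windows on build GRCm38.p6, from 250 bases before to 50 bases after an annotated start, were available for 7 of the 9 members. They were searched on both strands for the E2F words TTTCCCGC, TTTCGCGC, TTTGCCGC and TTTGGCGC. They were also searched for the short CHR words TTTGAA and TTCGAA, the elements through which MuvB is known to bind late cell cycle genes. An E2F word was present in 2.26% of all 32851 windows and a CHR word in 19.2% of them. E2f2, E2f3, E2f7 and Rbl1 held an E2F word, and E2f2, E2f3, E2f8 and Rbl2 held a CHR word, in E2f2 only in a second window 8388 bases inside the gene. The next 5 windows are shown because they hold these words at 4 members whose transcripts were higher in memory, and at Rbl1, which did not pass the calling rule. Capitals mark the E2F word, or in E2f8 the CHR word.
E2f2, chr4:136172024-136172323, plus strand: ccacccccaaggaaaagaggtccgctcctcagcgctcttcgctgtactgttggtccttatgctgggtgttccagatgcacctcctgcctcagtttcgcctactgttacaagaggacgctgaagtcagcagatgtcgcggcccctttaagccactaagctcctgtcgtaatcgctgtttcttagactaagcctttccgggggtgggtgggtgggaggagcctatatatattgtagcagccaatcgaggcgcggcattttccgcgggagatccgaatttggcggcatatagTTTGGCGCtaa
E2f3, chr13:29986014-29986313, minus strand: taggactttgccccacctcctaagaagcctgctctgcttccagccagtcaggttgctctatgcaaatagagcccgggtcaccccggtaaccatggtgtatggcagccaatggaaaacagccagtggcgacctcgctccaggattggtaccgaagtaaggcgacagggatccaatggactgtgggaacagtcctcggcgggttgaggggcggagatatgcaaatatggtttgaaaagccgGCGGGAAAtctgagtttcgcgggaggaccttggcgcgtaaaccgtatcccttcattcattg
E2f7, chr10:110745189-110745488, plus strand: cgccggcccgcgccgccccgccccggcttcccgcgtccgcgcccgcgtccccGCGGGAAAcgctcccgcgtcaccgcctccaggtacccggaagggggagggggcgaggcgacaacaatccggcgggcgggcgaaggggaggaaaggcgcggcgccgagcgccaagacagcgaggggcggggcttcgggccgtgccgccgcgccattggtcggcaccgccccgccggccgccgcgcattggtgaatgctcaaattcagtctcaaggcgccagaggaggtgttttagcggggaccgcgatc
E2f8, chr7:48881547-48881846, minus strand: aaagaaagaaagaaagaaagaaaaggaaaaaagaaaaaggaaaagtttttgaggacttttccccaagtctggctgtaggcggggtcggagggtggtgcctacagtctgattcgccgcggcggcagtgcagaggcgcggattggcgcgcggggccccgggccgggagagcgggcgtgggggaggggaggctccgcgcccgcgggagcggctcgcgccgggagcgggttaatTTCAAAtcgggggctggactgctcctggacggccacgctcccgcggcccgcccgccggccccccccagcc
Rbl1, chr2:157204485-157204784, minus strand: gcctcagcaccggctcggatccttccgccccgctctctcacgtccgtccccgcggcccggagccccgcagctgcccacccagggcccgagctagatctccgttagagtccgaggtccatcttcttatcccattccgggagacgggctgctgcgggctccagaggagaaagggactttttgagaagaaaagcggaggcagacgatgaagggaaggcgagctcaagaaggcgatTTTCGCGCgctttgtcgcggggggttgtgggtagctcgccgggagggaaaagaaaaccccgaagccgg
The word began 198 bases before the start in E2f7, 18 before it in Rbl1 and 11 before it in E2f3, where a CHR word lay just upstream at 23 bases before it. In E2f2 the word began at base 40 after the RefSeq start, which lies 120 bases upstream of the GENCODE gene start. The CHR word of E2f8 began 20 bases before its start. The only E2f1 window in the table began from a start 466 bases inside the gene and held none of these words. A word is a match of letters and does not show that a factor binds there.

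Activating E2F transcripts were higher in both memory libraries than in naive. E2f1, a strong activator of S-phase entry (ENSMUSG00000027490.17, chromosome 2, 154559407 to 154569892, GRCm38), lay at 1.47 CPM in naive cells, 17.9 in central memory and 64.4 in effector memory, from 41, 642 and 2060 counts. The 3 libraries were well separated, with naive lowest and effector memory highest. The ratio was 12.2 in central memory against naive (interval 8.87 to 17.1), 43.7 in effector memory against naive (interval 32.1 to 61.1) and 3.59 in effector memory against central memory (interval 3.29 to 3.93).

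E2f2, an activator that is prominent in lymphocytes (ENSMUSG00000018983.9, chromosome 4, 136172394 to 136196057), lay at 9.13 CPM in naive cells, 77.0 in central memory and 147.7 in effector memory. It was the most abundant activator per kilobase in both memory libraries. It was 8.43-fold higher in central memory than in naive (interval 7.41 to 9.63) and 16.2-fold higher in effector memory than in naive (interval 14.3 to 18.4). Between the memory libraries the ratio was 1.92 (interval 1.83 to 2.01), just under the size the rule asks for. E2f3, the remaining activator (ENSMUSG00000016477.18, chromosome 13, 29906575 to 29986063), lay at 10.6, 23.3 and 37.5 CPM in naive, central memory and effector memory. Its order of libraries was that of E2f1 and E2f2, over a narrower range. It was 2.20-fold higher in central memory (interval 1.92 to 2.52) and 3.55-fold higher in effector memory (interval 3.12 to 4.05) than in naive, and the ratio between the memory libraries was 1.61 (interval 1.48 to 1.76).

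The repressing factors split in 2 ways. E2f7 (ENSMUSG00000020185.16, chromosome 10, 110745439 to 110787384) and E2f8 (ENSMUSG00000046179.17, chromosome 7, 48866429 to 48881596), the atypical repressors, had no count in naive. E2f7 stood at 11.5 CPM in central memory and 47.1 in effector memory, from 413 and 1507 counts, and E2f8 at 21.1 and 103.6 CPM, from 755 and 3312 counts. Both were thus seen in the memory libraries alone, and were highest in effector memory. Exons of E2f8 overlap those of Gm2788 by 610 bases on the other strand, which was not analysed here. Against 3 counts in naive, E2f7 was at least 107-fold higher in central memory and at least 437-fold higher in effector memory; the lower ends of its counting intervals were 86.6 and 355. E2f8 was at least 195-fold higher in central memory and at least 961-fold higher in effector memory, with lower ends of 159 and 781. Among all genes tested, E2f8 took rank 29 of 9737 from the highest ratio in central memory against naive and rank 36 of 10087 in effector memory against naive. Between the memory libraries E2f7 was 4.09-fold higher (interval 3.66 to 4.57) and E2f8 4.91-fold higher (interval 4.54 to 5.32) in effector memory, the largest ratios of the 9 members in that comparison.

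E2f4, the repressor found in resting cells with p130 (ENSMUSG00000014859.9, chromosome 8, 105297663 to 105305370), was instead abundant in every library. It stood at 108 CPM in naive cells, 128 in central memory and 187 in effector memory. The 3 levels lay within 1 narrow range, in the same order as those of the activators. The ratios were 1.18 in central memory against naive (interval 1.13 to 1.24), 1.73 in effector memory against naive (interval 1.66 to 1.81) and 1.47 between the memory libraries (interval 1.41 to 1.53), none of which reached the size for a call. Per kilobase, E2f4 was the most abundant of the 9 members in all 3 libraries, at 44.1, 52.1 and 76.4 CPM per kilobase.

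**Figure D1:**
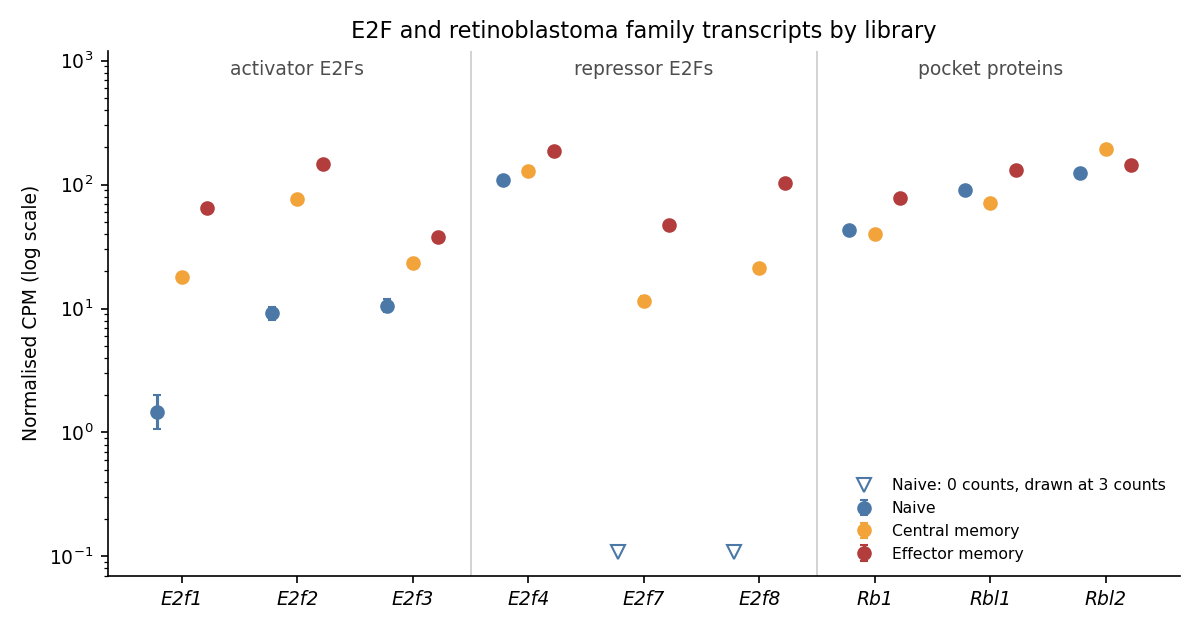
Normalised CPM (log scale) of the 9 genes in the naive, central memory and effector memory libraries, 1 point a library, with bars for the exact 95% Poisson interval of the count. The activators and the atypical repressors climb over the 3 libraries, E2f7 and E2f8 have no naive count and are drawn there at 3 counts, and E2f4 and the pocket protein genes stay between 40.2 and 194.6 CPM.

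The pocket protein genes differed less between libraries than the activators did. Rb1, which encodes RB (ENSMUSG00000022105.6, chromosome 14, 73183673 to 73325822), lay at 42.8 CPM in naive cells, 40.2 in central memory and 78.3 in effector memory. Naive and central memory were not separable beyond counting error with TMM scaling (ratio 0.94, interval 0.87 to 1.02), and effector memory stood above both. The ratio of effector memory was 1.83 against naive (interval 1.71 to 1.96) and 1.95 against central memory (interval 1.82 to 2.08). Exons of Rb1 overlap those of Rcbtb2 by 488 bases and of Lpar6 by 408 bases on the other strand, and the labelled library kit does not record strand. Rcbtb2 stood at 47.3, 45.3 and 63.9 CPM and Lpar6 at 71.0, 80.5 and 52.2 CPM in naive, central memory and effector memory; their part in the Rb1 values was not tested.

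Rbl1, which encodes p107 and is itself known as an E2F target (ENSMUSG00000027641.13, chromosome 2, 157145893 to 157204534), lay at 90.5 CPM in naive cells, 70.8 in central memory and 129.9 in effector memory. It was thus lowest in central memory and already abundant in naive. Its promoter window holds the E2F word shown above. The ratios were 0.78 in central memory against naive (interval 0.74 to 0.83), 1.43 in effector memory against naive (interval 1.37 to 1.51) and 1.83 between the memory libraries (interval 1.75 to 1.93). Rbl2, which encodes p130, the pocket protein of quiescent cells (ENSMUSG00000031666.15, chromosome 8, 91070057 to 91123844), ran the other way. It stood at 123.9 CPM in naive cells, 194.6 in central memory and 145.0 in effector memory, so central memory was the highest library. Its ratio was 1.57 in central memory against naive (interval 1.51 to 1.64), 1.17 in effector memory against naive (interval 1.12 to 1.22) and 0.75 in effector memory against central memory (interval 0.72 to 0.77). Exons of Rbl2 overlap those of Aktip by 693 bases and of Gm45464 by 892 bases on the other strand. Gm45464 was not analysed here. Aktip stood lower but was also highest in central memory, at 11.6, 19.7 and 13.9 CPM. Its part in the Rbl2 values was not tested.

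By the calling rule, 5 of the 9 members were higher in central memory than in naive (E2f1, E2f2, E2f3, E2f7 and E2f8), 0 were lower, and 4 met the rule in neither direction (E2f4, Rb1, Rbl1 and Rbl2). Of all 9737 genes tested there, 11.2% were higher and 5.12% lower. Against naive, the members called in effector memory were the same 5, where 22.3% of 10087 genes tested were higher and 15.6% lower. In effector memory against central memory 3 members were higher (E2f1, E2f7 and E2f8) and 6 passed in neither direction, where 14.8% of 9975 genes tested were higher and 12.8% lower. The median log2 ratio of the 9 members was 1.14, 1.83 and 0.94 in these comparisons, beside 0.14, 0.06 and -0.06 for all genes tested. The comparisons with naive share the naive library and are not independent. E2f2 and Rb1 were also called between the memory libraries with DESeq2 size factors, at log2 ratios of 1.02 and 1.04 in place of 0.94 and 0.96. At a minimum of 20 CPM, the calls of E2f1 and E2f7 in central memory against naive were lost.

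**Figure D2:**
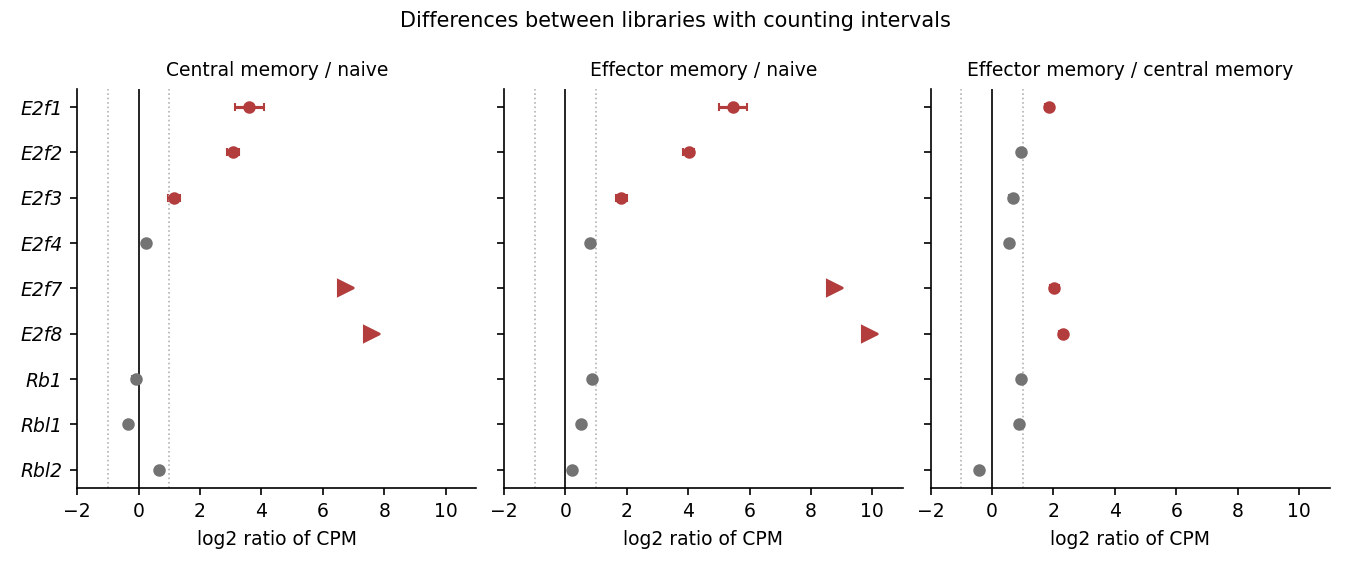
Log2 ratio of CPM of each member in the 3 comparisons, with bars for the exact 95% counting interval; triangles are bounds against 3 counts, red marks members that passed the calling rule and dotted lines mark a ratio of 2. All 5 members called against naive are E2F factors, and no pocket protein gene passes in any of the 3 comparisons.

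Activating and repressing members were then compared as sums per kilobase. The activators E2f1, E2f2 and E2f3 summed to 4.28 CPM per kilobase in naive cells, 25.7 in central memory and 57.6 in effector memory. The repressors E2f4, E2f7 and E2f8 summed to 44.1, 57.2 and 100.7 CPM per kilobase. Activators thus made up 8.85% of the summed level of the 6 factors in naive cells, 31.0% in central memory and 36.4% in effector memory, and repressors were the larger part in every library. This order rests on E2f4: set against E2f7 and E2f8 alone, activators made up 100%, 83.3% and 70.4%. The same share of raw counts was 16.4% in naive cells (exact binomial interval 15.2% to 17.6%), 42.4% in central memory (interval 41.5% to 43.4%) and 42.5% in effector memory (interval 41.8% to 43.2%). On raw counts the memory libraries therefore could not be separated by this share. E2f1 took 6.85% of the 6 factors per kilobase in central memory and 12.9% in effector memory, and 6.44% and 10.96% of raw counts. On raw counts E2f2 took 27.6% and 25.1% and E2f3 8.35% and 6.38% in these libraries.

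The change from naive was larger for the activators than for the repressors as a whole. Summed activator counts, scaled to library size, were 5.58-fold higher in central memory (interval 5.12 to 6.09) and 11.8-fold higher in effector memory (interval 10.8 to 12.8) than in naive. Summed repressor counts gave 1.48 (interval 1.42 to 1.55) and 3.12 (interval 3.0003 to 3.25). Between the memory libraries both sums stood at the same ratio, 2.11 for activators (interval 2.04 to 2.19) and 2.11 for repressors (interval 2.04 to 2.18). The repressor sum joins unlike genes: E2f4 made up 91.2% of the summed level of the 6 factors in naive cells, 62.8% in central memory and 48.3% in effector memory, while E2f8 made up 0%, 4.67% and 12.02%. The atypical pair alone summed to 0, 5.15 and 24.3 CPM per kilobase and was 4.62-fold higher in counts in effector memory than in central memory (interval 4.33 to 4.93), above the activators' 2.11.

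Within a library, members were also ordered per kilobase of exon union, and this order differed between the libraries. In naive it ran E2f4, Rbl2, Rbl1, Rb1, E2f3, E2f2 and E2f1, at 44.1, 16.4, 15.1, 7.12, 1.95, 1.87 and 0.47 CPM per kilobase, with E2f7 and E2f8 at 0. All pocket protein genes were above all activators there, and only E2f3 and E2f2 had overlapping counting intervals among the genes detected. In central memory E2f2, at 15.8, had moved above Rbl1 and Rb1, at 11.8 and 6.69, while E2f1 stood at 5.68, E2f3 at 4.28, E2f8 at 3.87 and E2f7 at 1.28; the intervals of E2f3 and E2f8 overlapped. In effector memory E2f2 was second to E2f4, at 30.3. Rbl1, E2f1, Rbl2 and E2f8 followed at 21.7, 20.4, 19.2 and 19.0, and among these 4 each interval overlapped that of the next, though Rbl1 stood apart from Rbl2 and E2f8. Rb1 at 13.01, E2f3 at 6.91 and E2f7 at 5.23 came last. The intervals hold counting error only and not the choice of gene length. For Rbl2, E2f8 and E2f7 the exon unions are 7558, 5443 and 9009 bases and the longest transcripts 4925, 3691 and 5473 bases. The order of members with close values in the memory libraries therefore depends on the length used.

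The make-up of the pocket protein pool also differed. Rbl2 was 42.4% of the summed pocket protein level per kilobase in naive cells, 58.2% in central memory and 35.6% in effector memory. Rbl1 made up 39.1%, 26.7% and 40.2% and Rb1 18.4%, 15.1% and 24.2%. On raw counts Rbl2 made up 48.2%, 63.7% and 41.1% and Rbl1 35.2%, 23.2% and 36.8%. Which of Rbl1 and Rbl2 was the larger part in effector memory therefore depended on the length correction. Central memory was the library in which a single pocket protein gene, Rbl2, held most of the pool. The pool as a whole was 38.6, 44.2 and 53.9 CPM per kilobase. The ratio of the 6 E2F transcripts to the 3 pocket protein transcripts per kilobase was 1.25 in naive cells, 1.87 in central memory and 2.94 in effector memory. For the activators alone it was 0.11, 0.58 and 1.07. These ratios rest on exon-union lengths. Without length, activators summed to 250 CPM and pocket protein genes to 353 CPM in effector memory. Transcript ratios of this kind say nothing of protein amounts or phosphorylation.

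**Figure D3:**
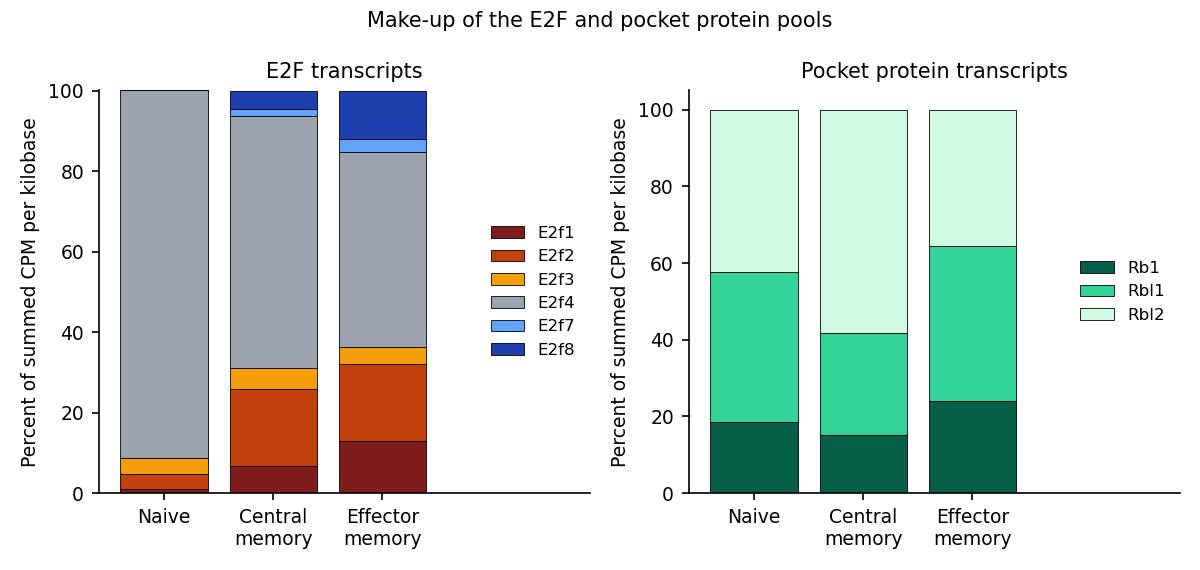
Percent of the summed CPM per kilobase that each gene took of the 6 E2F transcripts (left) and of the 3 pocket protein transcripts (right), 1 bar a library. E2f4 falls from 91.2% of the E2F sum in naive to 48.3% in effector memory, and Rbl2 takes its largest part, 58.2%, in central memory.

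Genes that work with the family were taken from lists chosen with earlier results of these data known. Of the other E2F factors and the DP partners, Tfdp1, which encodes the main dimer partner DP1, stood at 49.7, 131.4 and 262 CPM in naive, central memory and effector memory. It was 2.64-fold higher in central memory (interval 2.49 to 2.81) and 5.27-fold higher in effector memory (interval 4.98 to 5.59) than in naive, and its promoter window held the E2F word TTTCGCGC. E2f5, a further pocket-bound repressor, stood at 16.7, 9.88 and 4.78 CPM. It was 3.49-fold lower in effector memory than in naive (interval 2.90 to 4.21) and 2.07-fold lower than in central memory (interval 1.70 to 2.51), the opposite direction to E2f7 and E2f8. E2f6, a repressor that acts without pocket proteins, stood at 26.9, 31.2 and 36.1 CPM and Tfdp2 at 26.1, 48.2 and 39.5 CPM, and neither passed in any comparison.

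Of 8 MuvB and partner genes, 2 of 7 tested were higher in central memory than in naive, and 3 of 8 in effector memory than in naive and than in central memory, with none lower, beside 11.2%, 22.3% and 14.8% of all genes tested that were higher. The genes called were the factors that turn MuvB into an activator of late cell cycle genes. Mybl2, which encodes B-MYB, stood at 3.05, 18.0 and 111 CPM and was 36.5-fold higher in effector memory than in naive (interval 29.4 to 45.8). Foxm1, which joins MuvB in G2 phase, stood at 4.56, 39.0 and 153 CPM. Mybl1 stood at 0.755, 3.38 and 17.0 CPM. The core subunits Lin9, Lin37, Lin52 and Lin54 and the histone-binding subunit Rbbp4 passed in neither direction in all 3 comparisons.

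Among 9 cyclins and kinases that phosphorylate pocket proteins, 3 of 8 tested were higher in central memory than in naive, and 7 were higher and 1 lower in effector memory than in naive. Of all genes tested, 11.2% were higher and 5.12% lower in the first comparison, and 22.3% higher and 15.6% lower in the second. Cdk6, a partner of D cyclins, stood at 83.7, 237 and 362 CPM in naive, central memory and effector memory. Ccne2, an E cyclin, stood at 1.94, 5.67 and 31.8 CPM, and Ccna2, the S and G2 phase cyclin, at 0.32, 46.9 and 279 CPM. Ccnd2, a D cyclin, was the member that was lower, at 759, 640 and 278 CPM, and was 2.30-fold lower in effector memory than in central memory (interval 2.24 to 2.36). Of 7 CDK inhibitors, 1 of 3 tested was higher in central memory than in naive and 3 of 5 in effector memory than in naive, beside the same 11.2% and 22.3%. Cdkn2c, which encodes the CDK4 and CDK6 inhibitor p18, stood at 2.23, 36.5 and 68.6 CPM. Cdkn1a, which encodes p21, had 0.07, 3.99 and 156 CPM, and Cdkn2a, which has no naive count, 1.28 and 13.7 CPM in the memory libraries. Cdkn1b, which encodes the inhibitor p27 of resting cells, passed in neither direction, at 243, 257 and 184 CPM.

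Of 14 corepressors and chromatin partners of E2F and pocket proteins, 1 was higher in central memory than in naive and 13 passed in neither direction. In effector memory against naive, 3 were higher and 1 was lower, Rnf2, a Polycomb ubiquitin ligase, at 60.6 and 26.7 CPM. These counts are near the 11.2% and 22.3% of all genes tested that were higher in the same comparisons, so they say nothing particular of the list. Ezh2, the Polycomb methyltransferase, stood at 21.8, 74.9 and 245 CPM. Dnmt1, the maintenance DNA methyltransferase, was 2.80-fold higher (interval 2.72 to 2.87) and Suv39h1, a histone methyltransferase that binds RB, 2.69-fold higher (interval 2.53 to 2.86) in effector memory than in naive. L3mbtl2, a partner of E2F6, was 2.53-fold lower in effector memory than in central memory (interval 2.34 to 2.74). The deacetylases Hdac1 and Hdac2 and the scaffolds Sin3a and Sin3b passed in neither direction in any comparison.

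Most known targets of the family were higher in the memory libraries too. Of 36 G1/S genes that activating E2F factors are known to drive, 34 were tested in central memory against naive, of which 23 were higher and 11 met the rule in neither direction (median log2 ratio 1.32). In effector memory against naive 35 of 36 were higher (median 3.61), and Cdc25a alone passed in neither direction, at 28.3 and 51.3 CPM. In effector memory against central memory 33 of 36 were higher (median 2.03). Of all genes tested, 11.2%, 22.3% and 14.8% were higher in these comparisons, with median log2 ratios of 0.14, 0.06 and -0.06. Rrm2, a subunit of ribonucleotide reductase, stood at 1.01, 80.3 and 398 CPM. Cdc6 and Mcm10, which act at replication origins, stood at 0.29, 17.8 and 102.9 CPM and at 0.25, 15.2 and 97.7 CPM. Gins1 and Orc1, further origin factors, showed the largest ratios between the memory libraries, at 7.21 (interval 6.09 to 8.58) and 6.65 (interval 5.67 to 7.84).

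Of 25 late cell cycle genes known as DREAM targets, 23 of 24 tested were higher in central memory than in naive (median log2 ratio 5.54), and all 25 were higher in effector memory than in naive (median 8.55) and than in central memory (median 2.93). The shares of all genes tested that were higher were 11.2%, 22.3% and 14.8% in that order. Kif23 was the gene that passed in neither direction in central memory against naive. Mki67, a marker of dividing cells, stood at 2.62, 301 and 1819 CPM in naive, central memory and effector memory, the same order as all 6 E2F members. How much of each member's difference came with the share of dividing cells was not tested. Of 10 apoptosis genes known as E2F1 targets, 4 of 8 tested were higher in central memory than in naive and 4 of 8 in effector memory than in naive, with none lower, beside 11.2% and 22.3% of all genes tested that were higher. Pmaip1, which encodes the death inducer NOXA, stood at 2.41, 11.2 and 27.2 CPM. Bcl2l11, which encodes the death inducer BIM, was highest in central memory, at 74.8, 197 and 92.9 CPM, and was 2.12-fold lower in effector memory than in central memory (interval 2.03 to 2.22).

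**Figure D4:**
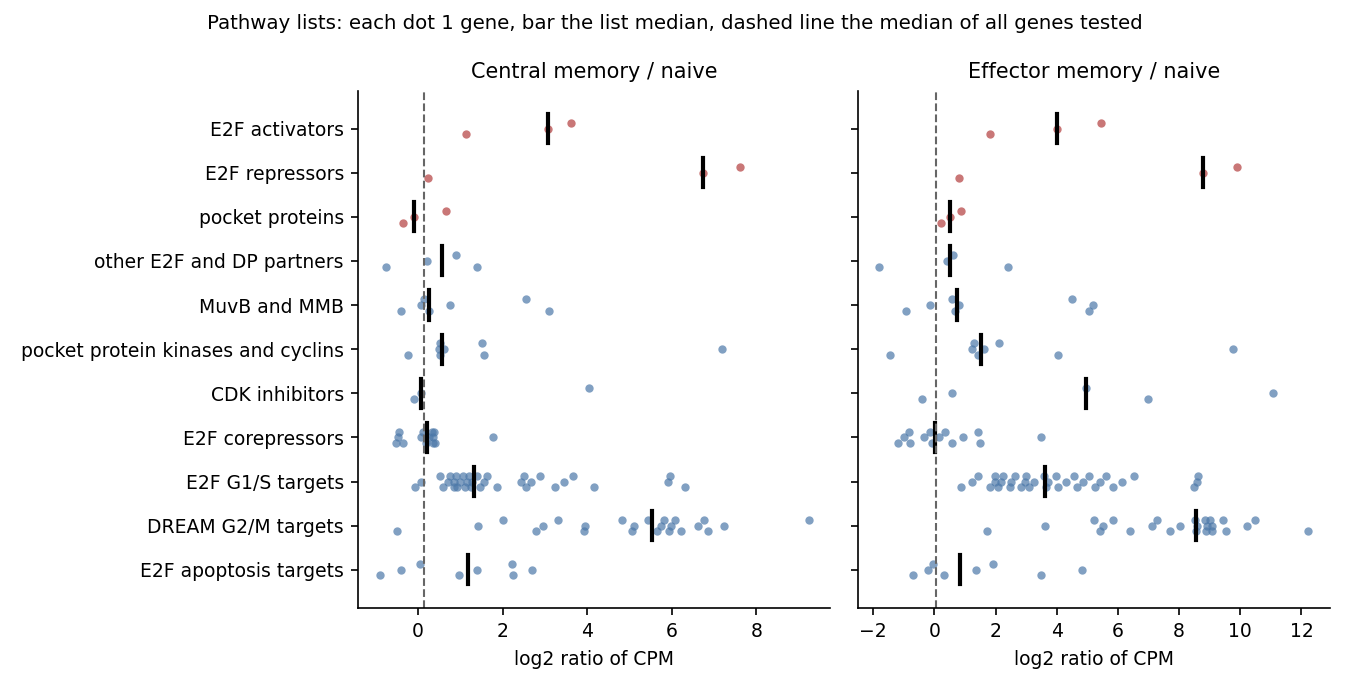
Log2 ratio of CPM in central memory (left) and effector memory (right) against naive for the genes of each list that reached 5 CPM in 1 of the 2 libraries, with the list median as a bar and the median of all genes tested as a dashed line. The late cell cycle targets have medians of 5.54 and 8.55. The corepressor list has medians of 0.21 and 0.03, near the dashed line, and the pocket protein list -0.09 and 0.52.

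The promoter words were also counted over these lists. An E2F word was present in the windows of 13 of 29 G1/S targets (44.8%) and of 1 of 21 DREAM targets (4.76%), beside 5.09% of 8038 genes at 5 CPM. A CHR word was present for 17 of 21 DREAM targets (81.0%) and 4 of 29 G1/S targets (13.8%), beside 16.4% of those genes. Over the whole table, 129 of 407 tested genes with an E2F word were higher in effector memory than in naive (31.7%) and 42 were lower (10.3%), while of 7536 genes without one 1613 were higher (21.4%) and 1146 lower (15.2%). In central memory against naive 14.8% of 392 genes with the word and 10.9% of 7306 without it were higher. The base composition of the windows was not matched in these counts. Among the members, E2f2, E2f3 and E2f7 held an E2F word and were called, and Rbl1 held one and was not called. The E2f8 window held none and the gene was called, and Rbl2 held none and was not called. The only E2f1 window began from a start 466 bases inside the gene, and E2f4 and Rb1 had no window. Too few members remain to say whether the word marks the genes called.

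The genes whose pattern was nearest to a member were sought over the 3 libraries, by distance in the log2 ratios of both memory libraries to naive among 9852 genes at 5 CPM. Nearest to E2f1 were C1qtnf6, Anxa4 and Exo1, at distances of 0.10, 0.12 and 0.24 log2 units, and 28 genes lay within 0.5. Nearest to E2f8 were Anxa1, Nuf2 and Kcnk5, at 0.28, 0.29 and 0.34, with 5 genes within 0.5. Counts below 3 were set to 3 for these distances. In naive, E2f8 and Anxa1 had 0 CPM and Nuf2 and Kcnk5 0.072 CPM, all under that floor. The distances of these genes from E2f8 therefore compare memory levels only. The patterns of Rbl1 and Rbl2 were common ones, with 739 and 1331 genes within 0.5. Wsb1, Asnsd1 and Slc25a40 were nearest to Rbl1, and Med16, Eya3 and Zfpl1 to Rbl2. With 3 libraries such likeness is only a description.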

How the data were processed

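The deposited table holds raw read counts per gene symbol, 1 column a library, and the submitters' processing notes name featureCounts 1.5.0-p3 and HISAT2 2.0.5 beside CASAVA and the build mm10. The annotation, strand setting and treatment of reads shared by overlapping genes were not given in the sources used here. The columns TN, TCM and TEM were read as naive, central memory and effector memory. Members, lists, rules and alternatives were chosen with earlier results of these data known. All 9 members are named; from each other list, up to 3 called genes with the largest ratio per comparison were eligible, and others named with values were chosen after these were seen.

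Counts were scaled with TMM factors (edgeR 4.0.16, R 4.3.3). Ratios carry exact (Clopper-Pearson) 95% counting intervals, and a 0 was set to 3 counts for a bound. The rule was tested on simulated data with counting error only, which do not cover variation between animals or libraries. Gene lengths are exon unions from GENCODE M21 (GRCm38), where 98.7% of gene names were found. Alternatives were scaling by upper quartile factors, by total counts or by size factors of DESeq2 1.42.0, and other ratios, minimum levels, lengths and member sets. Python 3.11.15, NumPy 2.4.6, SciPy 1.17.1, pandas 2.3.3 and Matplotlib 3.10.9 were used. Values of some list and marker genes are not reported here.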

Additional observations from a re-analysis of the deposited data

How the results depend on the processing

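All 27 member ratios kept their direction under the 3 other scalings and on the log2(CPM + 1) scale, and 106 of 108 such values kept their side of the calling rule; the exceptions were E2f2 and Rb1 in effector memory against central memory with DESeq2 size factors, which shifted the log2 ratios of that comparison by 0.08. Upper quartile factors shifted all log2 ratios by -0.12 in central memory against naive and -0.10 in effector memory against naive, and DESeq2 size factors by -0.11 and -0.03. In central memory against naive, a minimum of 20 CPM left 3 of the 5 members called. In effector memory against central memory, the 3 members called became 5 with DESeq2 size factors and 7 at a ratio of 1.5. At a ratio of 4, the G1/S targets called fell to 12 of 23 in central memory against naive and to 18 of 33 in effector memory against central memory. The activator percent of the E2F level in naive, central memory and effector memory was 16.4, 42.4 and 42.5 on raw counts. It was 6.85, 27.4 and 34.4 with E2f5 and E2f6 added to the repressors. Without E2f4 it was 100, 83.3 and 70.4, so that the order of the libraries is turned. The 100 in naive follows from E2f7 and E2f8 having no naive count. In effector memory against central memory, the summed counts of E2f7 and E2f8 were 4.62-fold higher and those of the activators 2.11-fold higher. With the longest transcript as length the activator percent was 27.5 in central memory and 32.1 in effector memory. No paired analysis was possible because each group has 1 library, and for the same reason no library could be left out. Depth limits the naive values of E2f7 and E2f8, at 0 counts, most, and then that of E2f1, with 41 counts.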
